A study of Mus musculus with 8 samples.

Results

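Eph receptors are receptor tyrosine kinases, and the ephrins are their ligands, which are themselves anchored in the membrane of a neighbouring cell. Contact between both cells signals in both directions and mostly ends in repulsion, so that cells with much receptor and cells with much ligand sort apart. In the intestinal epithelium, EphB2 and EphB3 are known as targets of β-catenin and TCF that are highest towards the crypt base, while ephrin-B1 and ephrin-B2 are highest towards the villus, and this arrangement keeps Paneth cells at the base and orders the cells along the crypt.

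Described here are 10 genes of this system: the receptors *Ephb2*, *Ephb3*, *Ephb4*, *Ephb6*, *Epha2*, *Epha4* and *Epha7* and the ligands *Efnb1*, *Efnb2* and *Efna1*. They were taken by name, as the rows of the deposited expression table that carry these gene symbols. That rule used no measured value, but the members were chosen with earlier results of these data known. The count table holds 53801 genes, of which 25485 were kept by the authors in their expression table, and 22 of the genes are Eph receptors or ephrins. The data are RNA sequencing of Lgr5-GFP+ cells from 8 mice, of which 4 are labelled β-catGOF; Mll1-/- and 4 β-catGOF; Mll1+/-, to ask what loss of the histone methyltransferase Mll1 does in stem cells with active Wnt signalling. All 8 mice carried the Lgr5-EGFP-IRES-CreERT2 transgene and the β-catGOF allele, and they differed by 1 or 2 floxed *Mll1* alleles. In the paper's design, tamoxifen induced both the activation of β-catenin and the loss of Mll1. Once recombined, the β-catGOF allele lacks the exon that marks β-catenin for degradation. The mice were 4 to 6 weeks old when they received tamoxifen (50 mg/kg, 3 daily injections), and their cells were collected 10 days later. Recombination is limited to cells that express the transgene, a small pool of EpCAM-stained, GFP-positive cells of 1 mouse made 1 library, and no library without β-catGOF was analysed here. The cells were sorted by GFP and not by recombination, and the recombined share of each pool was not measured.

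CPM stands for a gene's counts scaled to a common library size after TMM scaling (a correction for differences in composition between libraries), and the libraries held 14468751 to 16847793 counts on genes. A floor of 3 counts corresponded to 0.162 to 0.241 CPM, and it covers counting error only, because the amplified reads carry no molecular identifiers. *Kmt2a*, which encodes Mll1, was at 59.5, 62.6, 78.5 and 53.5 CPM in mice J_7075, J_7096, J_7135 and J_7136 labelled β-catGOF; Mll1-/- and at 50.2, 64.9, 51.2 and 48.9 CPM in mice J_7079, J_7100, J_7134 and J_7139 labelled β-catGOF; Mll1+/-. The level was thus not lower in the libraries labelled Mll1-/- (log2 fold change 0.24 ± 0.17 SE, edgeR adjusted p = 0.710). Counts summed over a whole gene do not show the loss of single exons and so do not check the labels. *Ctnnb1*, the gene of β-catenin, lay between 154.3 and 196.1 CPM in the first group and between 147.0 and 188.5 CPM in the second, and other genes overlap 15.1% of its exons. In every later sentence that lists 4 values per genotype, the mice follow in this order.

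J_7135 stood apart from the other libraries, since its highest Spearman correlation with any of them was 0.909, while the other 7 reached 0.947 to 0.966. Among the 9 members that could be tested, J_7135 held the highest value of all 8 libraries for *Ephb3*, *Ephb4* and *Efna1* and the lowest for *Ephb2*, *Epha2*, *Epha4* and *Efnb2*, so it was at an extreme for 7 of 9 members and no other mouse for more than 3. Library numbers in the file header form 2 runs, with J_7075, J_7096, J_7079 and J_7100 in the first and the other 4 mice in the second, and each run holds 2 mice of each genotype. Markers of the sorted cells were abundant, with *Lgr5* at 232.0 to 276.8 CPM in the libraries labelled Mll1-/- and 214.8 to 308.1 CPM in those labelled Mll1+/-. The endothelium and the mesenchyme also use Eph receptors and ephrins. The 8 endothelial markers summed to 5.44 to 8.28 against 5.20 to 7.84 CPM, most of it *Pecam1* (59 to 106 counts), and *Cdh5*, *Cldn5* and *Tie1* had at most 3 counts in every library. The 8 mesenchymal markers summed to 49.5 to 118.8 against 4.20 to 6.54 CPM, most of the first range from *Vim*, a filament gene, at 44.3 to 115.5 CPM. The 7 markers without *Vim* reached 2.14 to 6.76 against 1.44 to 4.00 CPM, with *Pdgfrb* at 108 counts in J_7135 and *Pdgfra* at no more than 3 counts throughout. Their part in the results on the members was not tested.

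None of the 9 members tested passed an adjusted p of 0.1 in edgeR, where 14 of 16445 genes, 0.0851%, did. Without adjustment, *Ephb3* and *Efna1* had a p under 0.05, which is 2 of 9 members against 9.15% of all genes, and both were higher in the libraries labelled Mll1-/-, against 5.4% of all genes in this direction. The genotypes did not overlap for *Ephb3* alone, 1 of 9 members against 6.28% of all genes. The fitted difference was above 0 for 7 of 9 members, with a median of 0.25 on the log2 scale, while the median over all genes was 0.01 and 50.8% of them were above 0. Without J_7135 it was above 0 for 8 of 9 members with a median of 0.38, the unadjusted p was under 0.05 for 3 of them, and again none passed the adjusted threshold, while in the same fit the median over all genes was -0.00097 and 9.07% of them had such a p. Because the members were chosen with earlier results of these data known, these counts and medians are a description. *Ephb6* did not pass the filter on low counts and had no test.

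**Figure D1:**
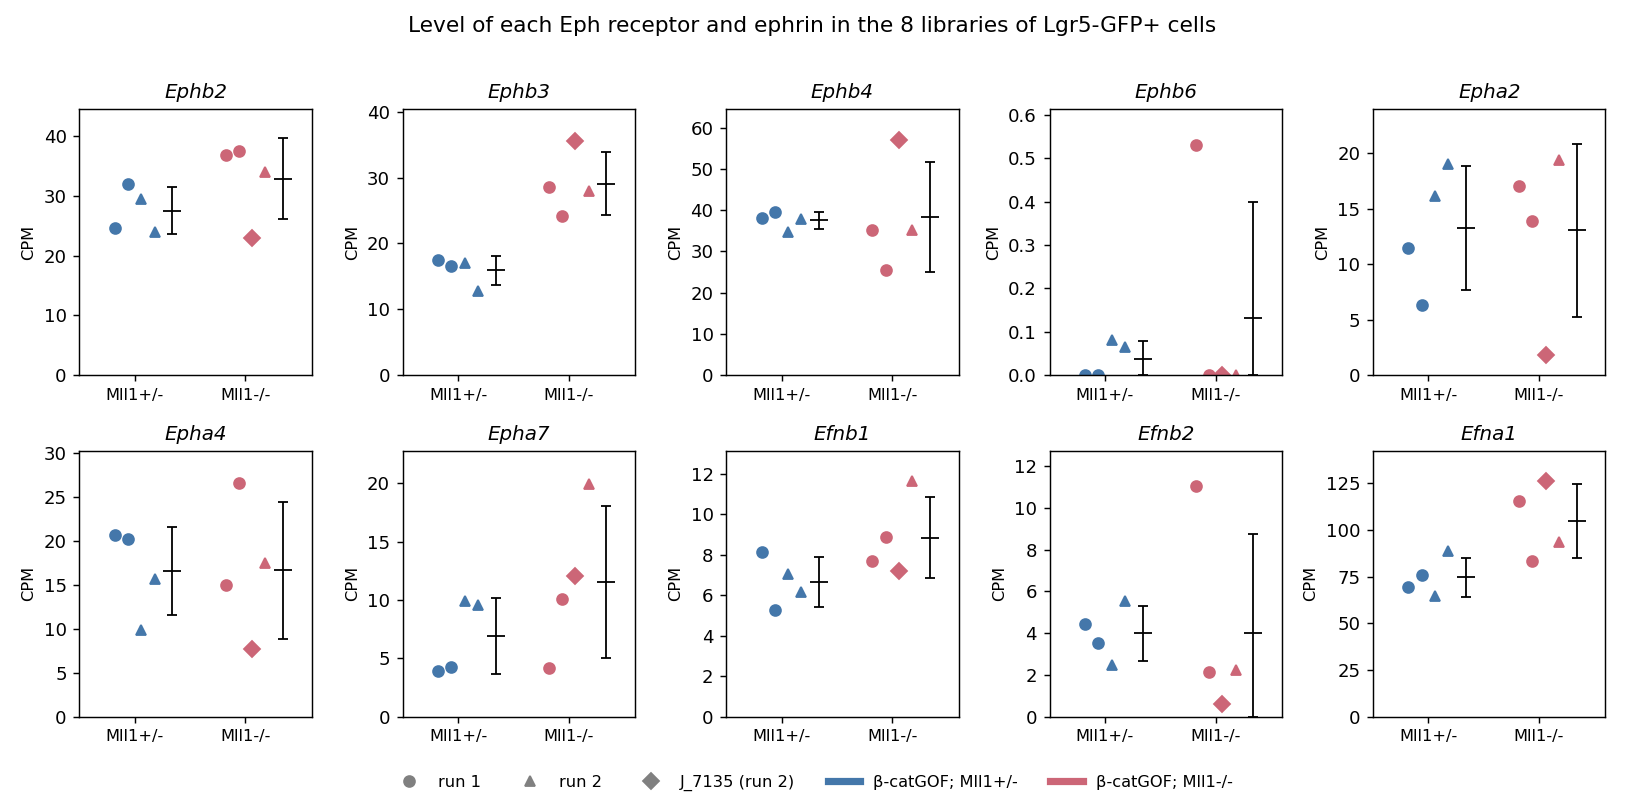
Level in CPM (vertical axis of each panel, from 0) of the 10 genes in the 4 libraries labelled β-catGOF; Mll1+/- (blue) and the 4 labelled β-catGOF; Mll1-/- (red), with circles for run 1, triangles for run 2 and a diamond for J_7135. The black bar gives the mean ± SD of 4 libraries, with the lower end stopped at 0, and the groups are apart only for Ephb3, where the lowest red point is at 24.2 and the highest blue point at 17.5 CPM.

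Among the EphB receptors, *Ephb2* encodes the receptor used to isolate crypt base cells by its surface level (ENSMUSG00000028664, chromosome 4 of GRCm38 from 136647539 to 136835988, minus strand). *Ephb2* was at 36.9, 37.5, 22.9 and 34.1 CPM in the libraries labelled Mll1-/- and at 24.7, 32.1, 29.5 and 23.95 CPM in those labelled Mll1+/-. 3 of the 4 libraries labelled Mll1-/- were above every library of the other group, and the other, J_7135, was below all of them. The means were 32.9 ± 6.80 and 27.6 ± 3.88 CPM (SD, n = 4), and the log2 fold change of 0.25 had a 95% interval from -0.21 to 0.71 (edgeR adjusted p = 0.752). Without J_7135 the log2 fold change was 0.39, still with an adjusted p of 0.518 in edgeR. Within the runs the difference of the mean log2 CPM was 0.40 in run 1 and 0.07 in run 2, which holds J_7135.

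*Ephb3*, the receptor that acts together with *Ephb2* in placing Paneth cells (ENSMUSG00000005958, chromosome 16 from 21204755 to 21223305, plus strand), stood out among the members. It was at 28.6, 24.2, 35.6 and 27.9 CPM in the libraries labelled Mll1-/- and at 17.5, 16.6, 17.0 and 12.7 CPM in those labelled Mll1+/-. Every library of the first group was above every library of the second, and the means were 29.1 ± 4.77 and 15.9 ± 2.18 CPM (SD, n = 4). The fold change was 1.82, or 0.87 ± 0.20 (SE) on the log2 scale, with a 95% interval from 0.42 to 1.31. With an unadjusted p of 0.0015, *Ephb3* was at rank 114 of the 16445 genes, and the adjusted p of 0.217 in edgeR missed the threshold. The DESeq2 Wald test on the same counts gave an adjusted p of 0.0031 and called 521 genes. The difference was 0.62 within run 1 and 1.09 within run 2, and it was 0.75 without J_7135.

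Because *Ephb2* and *Ephb3* are the members known as targets of β-catenin and TCF, and Mll1 is known to bind unmethylated CpG-rich DNA, the bases upstream of their starts are shown, from RefSeq on GRCm38.p6, 5′ to 3′ on the strand of the gene and ending at the more upstream of the RefSeq and Ensembl starts. Capitals mark each CpG, of which there were 20 in the 250 bases of *Ephb2* (chr4:136836013-136836262, minus strand) and 11 in the 210 bases of *Ephb3* (chr16:21204545-21204754, plus strand).
Ephb2: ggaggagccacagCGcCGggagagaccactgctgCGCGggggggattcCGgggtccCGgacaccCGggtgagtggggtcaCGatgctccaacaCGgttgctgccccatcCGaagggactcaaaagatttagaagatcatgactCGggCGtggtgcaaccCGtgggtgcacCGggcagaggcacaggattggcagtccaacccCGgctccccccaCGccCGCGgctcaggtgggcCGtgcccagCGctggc
Ephb3: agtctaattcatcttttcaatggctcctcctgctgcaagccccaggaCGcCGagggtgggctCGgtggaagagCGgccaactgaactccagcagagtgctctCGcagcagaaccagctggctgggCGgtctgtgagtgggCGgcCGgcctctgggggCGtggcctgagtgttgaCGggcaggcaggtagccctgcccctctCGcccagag

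CpG was more frequent at the members than at the median promoter. In windows of 300 bases, 250 before and 50 after each RefSeq start, the 12 promoters of the 10 members held 10 to 35 CpG, while all 32851 promoters had a median of 7 with quartiles at 3 and 20. Neither window held the core TCF motif CTTTGA, searched on both strands, which was in 16.0% of all promoters and in 1 of the 12 of the members. That match lay in *Epha2*, at position -209 from the start, and is shown in capitals within 46 bases (chr4:141300992-141301037, plus strand). No match says only that these letters are not in this window.
Epha2: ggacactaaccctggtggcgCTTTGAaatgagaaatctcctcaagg

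*Ephb4*, a receptor known best for its part in veins with ephrin-B2 as ligand, was measured at 35.2, 25.6, 57.0 and 35.3 CPM against 38.1, 39.5, 34.6 and 37.8 CPM. J_7135 was above and the other 3 libraries labelled Mll1-/- were within or below the range of the Mll1+/- libraries. The log2 fold change was 0.03 with a 95% interval from -0.50 to 0.56 (edgeR adjusted p = 0.982), and it was -0.23 without J_7135. The 2 runs differed in sign, with -0.37 in run 1 and 0.31 in run 2. *Ephb6*, a family member without kinase activity, was at 9 counts in J_7075 and at 0 in the other 3 libraries labelled Mll1-/-, and at 0, 0, 1 and 1 counts in those labelled Mll1+/-. All but J_7075 were thus under the floor of 3 counts, and a difference was not detectable at this depth.

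The 3 EphA receptors bind mainly ephrin-A ligands and varied more between mice of 1 genotype than *Ephb2* or *Ephb3*. *Epha2*, an epithelial receptor of ephrin-A1, was at 17.1, 13.8, 1.84 and 19.4 CPM in the libraries labelled Mll1-/- and at 11.5, 6.33, 16.1 and 19.0 CPM in those labelled Mll1+/-. The value in J_7135, from 34 counts, was under all others, and the groups overlapped. The log2 fold change was -0.03 with a wide interval from -1.39 to 1.34 (edgeR adjusted p = 0.995) and became 0.34 without J_7135. It was 0.84 within run 1 and -1.51 within run 2.

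*Epha4*, which binds ephrins of both classes, was at 14.9, 26.5, 7.68 and 17.5 CPM against 20.6, 20.2, 9.87 and 15.6 CPM. The ranges coincided over most of their length, and the log2 fold change of 0.01 had a 95% interval from -0.85 to 0.86 (edgeR adjusted p = 0.998). *Epha7*, a receptor known mainly from the nervous system, was at 4.19, 10.1, 12.01 and 19.9 CPM against 3.95, 4.22, 9.87 and 9.56 CPM. In this gene the 2 runs of library numbers differed beside the genotype. Among the libraries labelled Mll1+/-, both of run 1 were under 5 and both of run 2 above 9 CPM. Its difference was 0.66 in each run, and 0.74 in edgeR with an interval from -0.37 to 1.86 (adjusted p = 0.697). With the runs as a block in edgeR, the SE went from 0.50 to 0.32 and the unadjusted p from 0.167 to 0.046. The adjusted p of *Epha7* was then 0.489. In that fit 3 of 9 members had an unadjusted p under 0.05, beside 1642 of all 16445 genes.

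Of the ephrin-B ligands, *Efnb1*, the X-linked gene of ephrin-B1, was at 7.67, 8.86, 7.19 and 11.6 CPM in the libraries labelled Mll1-/- and at 8.14, 5.27, 7.06 and 6.13 CPM in those labelled Mll1+/-. The groups overlapped through J_7079, and the log2 fold change was 0.41 with a 95% interval from -0.19 to 1.01 (edgeR adjusted p = 0.690). The difference was 0.33 in run 1 and 0.47 in run 2. The sex of the mice is not given in the labels, and with *Xist* above the Y-linked genes as a covariate the log2 fold change was 0.44.

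*Efnb2*, the gene of ephrin-B2, was at 11.03, 2.14, 0.595 and 2.23 CPM against 4.43, 3.52, 2.49 and 5.55 CPM. 3 of the 4 libraries labelled Mll1-/- were below every library labelled Mll1+/-, and the other, J_7075, was above them all. The log2 fold change of -0.00028 had an interval from -1.66 to 1.66 (edgeR adjusted p = 1.000), and it was -1.27 without J_7075 (adjusted p = 0.531) and 0.36 without J_7135. Leaving out 1 library turned the direction of *Efnb2* in 5 of 8 cases, more often than for any other member.

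*Efna1* encodes ephrin-A1, the main ligand of the EphA2 receptor (ENSMUSG00000027954, chromosome 3 from 89271733 to 89281142, minus strand), and was the most abundant member. It was at 115.5, 83.5, 126.4 and 93.4 CPM in the libraries labelled Mll1-/- and at 69.6, 75.8, 64.8 and 88.9 CPM in those labelled Mll1+/-. All but J_7096 were above the whole second group, and the means were 104.7 ± 19.7 and 74.8 ± 10.4 CPM (SD, n = 4). The log2 fold change of 0.49 had a 95% interval from 0.11 to 0.86, with an unadjusted p of 0.017 and an adjusted p of 0.460 in edgeR. It was 0.43 in run 1, 0.52 in run 2 and 0.38 without J_7135, and DESeq2 gave an adjusted p of 0.212.

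**Figure D2:**
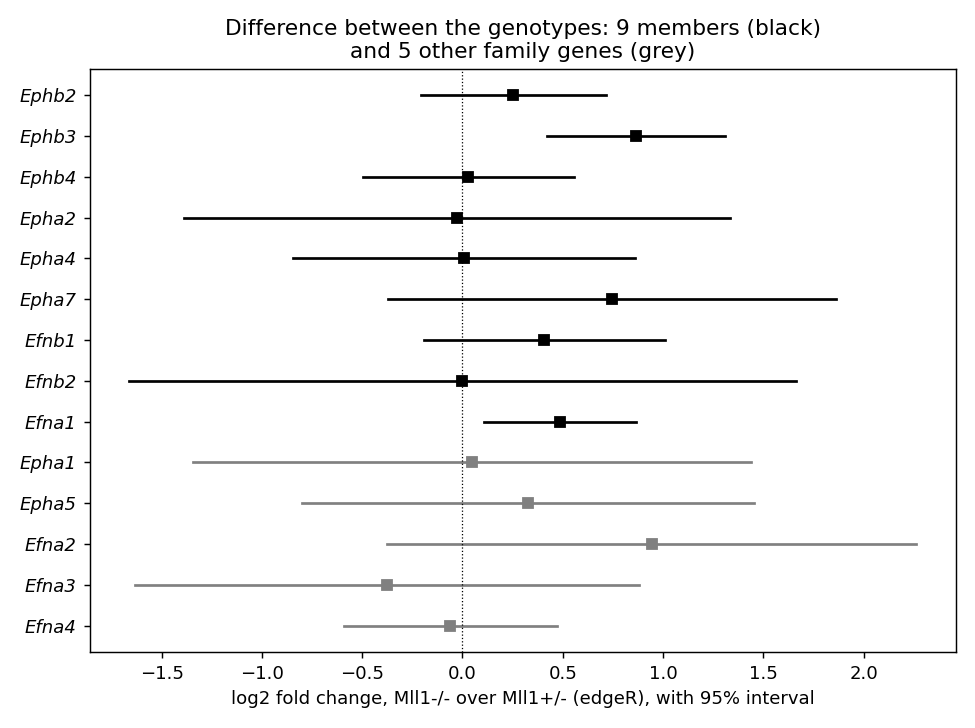
Log2 fold change of the libraries labelled Mll1-/- over those labelled Mll1+/- (horizontal axis) from the edgeR fit, as a square with its 95% interval, for the 9 members tested (black) and the 5 other Eph and ephrin genes tested (grey). The intervals of Ephb3, from 0.42 to 1.31, and of Efna1, from 0.11 to 0.86, lie above 0, and the interval of Efnb2 spans -1.66 to 1.66.

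**Figure D3:**
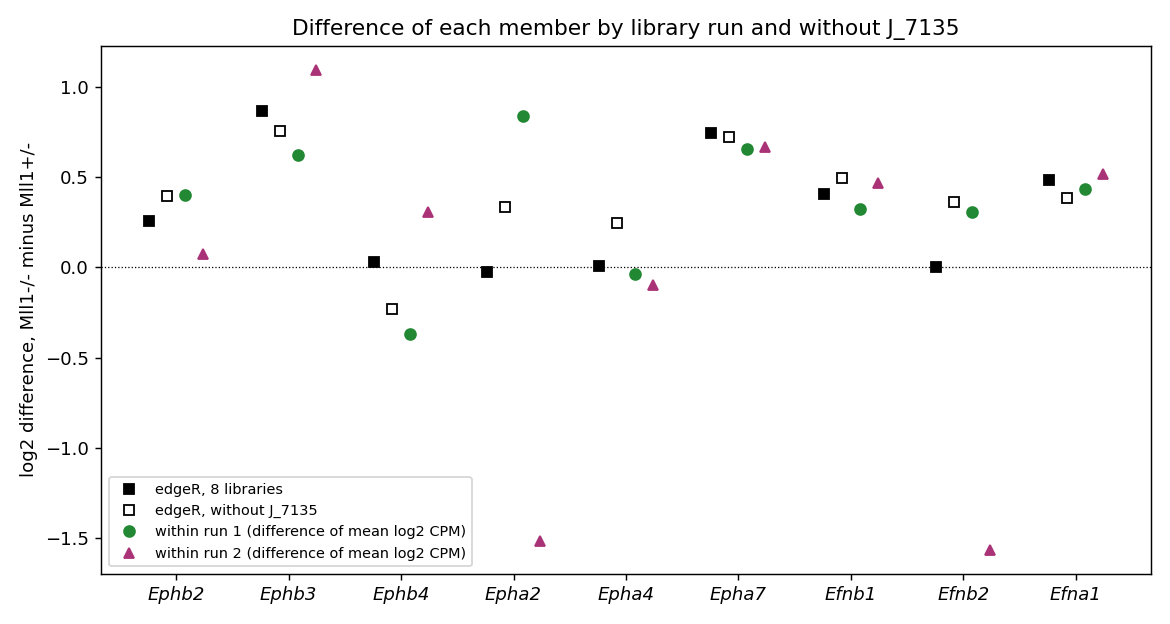
Log2 difference between the genotypes (vertical axis) of each of the 9 members from edgeR with all 8 libraries (filled square) and without J_7135 (open square), and as a difference of mean log2 CPM within run 1 (circle) and within run 2 (triangle). Ephb2, Ephb3, Epha7, Efnb1 and Efna1 lie above 0 throughout, whereas Epha2 and Efnb2 lie at -1.51 and -1.56 within run 2.

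Levels of different genes were compared as CPM per kilobase of exonic length. This length takes in all annotated exons of a gene, and which of its transcripts were expressed was not measured. In the libraries labelled Mll1+/-, *Efna1* was first with 40.9 ± 5.70, *Ephb4* second with 8.08 ± 0.45, followed by *Epha2* (2.83 ± 1.19), *Ephb3* (2.54 ± 0.35), *Ephb2* (2.19 ± 0.31), *Epha4* (2.06 ± 0.62) and *Efnb1* (1.93 ± 0.36), and at the end by *Epha7* (0.698 ± 0.33), *Efnb2* (0.583 ± 0.19) and *Ephb6* (0.0096 ± 0.011, all SD, n = 4). *Efna1* was above *Ephb4*, and *Ephb4* above *Epha2*, in 8 of 8 libraries. The 5 genes from *Epha2* to *Efnb1* overlapped with their neighbours in the Mll1+/- libraries. Per kilobase, *Ephb3* was nevertheless above *Ephb2* in 8 of 8 libraries, but in CPM only in J_7135. *Epha7* and *Efnb2* also overlapped, with *Epha7* higher in 5 of 8 libraries. In the libraries labelled Mll1-/-, *Ephb3* (4.62 ± 0.76) stood before *Epha2* (2.79 ± 1.67), and *Efnb1* (2.56 ± 0.58) stood before *Epha4* (2.07 ± 0.97).

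**Figure D4:**
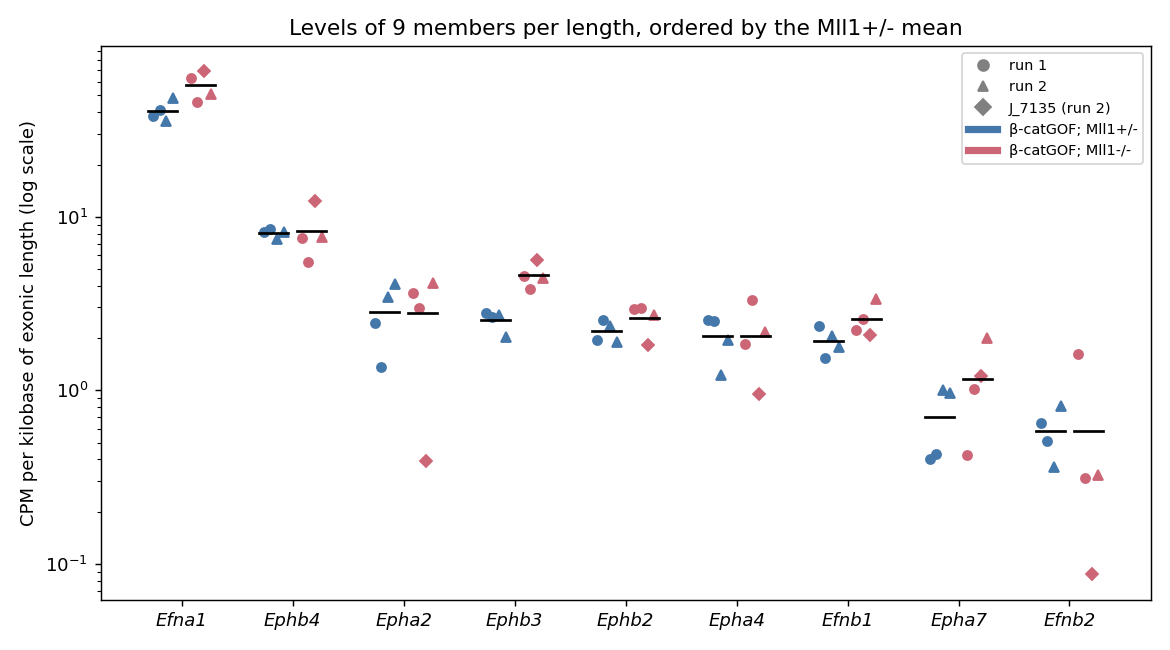
CPM per kilobase of exonic length (vertical axis, logarithmic) of 9 members, ordered by the mean of the libraries labelled Mll1+/- (blue), beside the libraries labelled Mll1-/- (red), with symbols by run and the mean as a black line; Ephb6 is left out because most of its libraries are at 0. Efna1 lies at 35.4 to 69.1, Ephb4 at 5.52 to 12.3, and the J_7135 diamonds of Epha2 and Efnb2 lie at 0.393 and 0.087.

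On the same scale, the ratio of *Ephb2* to *Ephb3* was 0.645, 0.775, 0.321 and 0.609 in the libraries labelled Mll1-/- and 0.706, 0.964, 0.866 and 0.939 in those labelled Mll1+/-. *Ephb3* was the higher of both genes in each library on this scale, and the genotypes overlapped through J_7096 and J_7079. This order rests on the division by length, 12.6 kilobases for *Ephb2* and 6.29 for *Ephb3*. In CPM, *Ephb2* was the higher in every library but J_7135, where it was at 22.9 against 35.6 CPM. The sum of *Ephb2* and *Ephb3* was 1.93 to 3.44 times that of *Efnb1* and *Efnb2* in the first group and 1.52 to 2.54 times in the second. *Efnb1* was 1.38 to 24.01 times as high as *Efnb2* in the first group, where J_7075 and J_7135 were the lowest and the highest, and 2.19 to 5.64 times in the second. The 3 EphA receptors together reached 0.037 to 0.163 of the level of *Efna1* against 0.103 to 0.160. These ratios are descriptions with no test.

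Likeness was measured by Pearson correlation of log2 CPM over the 8 libraries. The genes most like *Ephb3* among 8914 abundant genes were *Crb3* (r = 0.99), *Tmsb10* (r = 0.98) and *Prpf6* (r = 0.97). All 3 separated the genotypes in the same direction, for example *Tmsb10* with 129.0 to 145.5 CPM against 67.6 to 87.1 CPM. Because *Ephb3* itself separated the genotypes, this follows from the choice of genes by their likeness to it and is no separate result. Those most like *Ephb2* were *Pitpna* (r = 0.94), *Cxxc5* (r = 0.93) and *Hsd17b7* (r = 0.93), and their genotypes overlapped. *Efnb1* was closest to *Kdm3a* (r = 0.93), *BC017158* (r = 0.93) and *Cgnl1* (r = 0.91), and *Efnb2* to *Sephs2* (r = 0.96), *Wdr26* (r = 0.95) and *Tmem131* (r = 0.95). *Ephb2* and *Ephb3* had an r of 0.26 with each other. These values describe 8 libraries of 2 genotypes that share the sort and the library preparation.

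Among the other 12 genes of the family, 5 passed the filter and none had an unadjusted p under 0.05. *Efna4*, an ephrin-A ligand, was the second most abundant of all 22 genes per length, with 13.5 ± 4.07 and 14.05 ± 1.33 CPM per kilobase (SD, n = 4), and its log2 fold change was -0.06 (edgeR adjusted p = 0.962). A transcript of another gene overlaps 10.5% of its exons, and for *Efna3* this share was 14.1%, so their counts are less certain. *Epha1* was at 0.944 to 4.07 against 1.123 to 5.42 CPM, *Epha5* at 0.487 to 1.24 against 0.538 to 1.04 CPM, *Efna2* at 0.826 to 2.23 against 0.299 to 1.42 CPM and *Efna3* at 0.590 to 1.89 against 0.633 to 2.27 CPM. The receptors *Ephb1*, *Epha3*, *Epha6*, *Epha8* and *Epha10* and the ligand *Efna5* were at 0 to 8 counts in every library. *Efnb3*, another ephrin-B ligand, was at 7, 4, 2 and 4 counts in the libraries labelled Mll1-/- and at 11, 13, 19 and 7 counts in those labelled Mll1+/-, too few for the filter. In CPM its ranges of 0.108 to 0.413 against 0.452 to 1.52 did not overlap. Without the filter its log2 fold change was -1.76 (edgeR adjusted p = 0.569).

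Genes that act with the receptors were about evenly split. Of 46 signalling partners, 41 were tested, 21 were higher and 20 lower in the libraries labelled Mll1-/-, none passed the threshold in edgeR or under any alternative, and the median log2 fold change was 0.03. An unadjusted p under 0.05 was found for 3 genes, 7.32% of those tested against 9.15% of all genes. *Cfl1*, the actin-severing protein cofilin, was at 297.9, 253.2, 456.9 and 210.9 CPM against 206.5, 180.3, 185.2 and 205.9 CPM (log2 fold change 0.65, edgeR adjusted p = 0.449). *Grb7*, an adaptor of receptor tyrosine kinases, was at 79.0, 74.9, 157.5 and 95.6 CPM against 78.0, 63.6, 63.4 and 65.8 CPM (0.59, edgeR adjusted p = 0.505). J_7135 was the highest library in both genes, and without it the log2 fold changes were 0.39 and 0.30. *Kalrn*, a guanine nucleotide exchange factor, was at 0.919 to 5.84 against 0.775 to 1.97 CPM (1.43, edgeR adjusted p = 0.540). *Adam10*, the protease that sheds ephrins, was at 44.7 to 97.1 against 71.5 to 104.6 CPM (-0.39, edgeR adjusted p = 0.652).

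Of 19 Wnt and β-catenin target genes of the crypt, 18 were tested, 11 were higher and 7 lower, with a median of 0.15, and none passed the adjusted threshold in edgeR. *Nkd1* and *Notum* passed it in edgeR without a filter, in edgeR with at least 10 counts in every library and under limma-voom. These settings called 47, 34 and 103 genes in all. DESeq2 called 4 genes of the list and 521 in all. An unadjusted p under 0.05 was found for 5 genes, 27.8% of those tested against 9.15% of all genes. All 5 were higher in the libraries labelled Mll1-/-, against 5.4% of all genes in this direction. The list was chosen with earlier results of these data known. *Nkd1*, an inhibitor of Wnt signalling, was at 84.1, 52.8, 76.4 and 47.9 CPM against 28.8, 26.9, 28.9 and 21.1 CPM, which did not overlap (log2 fold change 1.31, edgeR adjusted p = 0.139). *Notum*, a secreted enzyme that inactivates Wnt ligands, was at 27.9, 12.6, 26.3 and 11.4 CPM against 0.898, 4.85, 3.29 and 0.968 CPM (2.97, edgeR adjusted p = 0.195). *Axin2*, a scaffold that promotes the degradation of β-catenin, was at 184.8 to 267.0 against 149.4 to 183.0 CPM (0.44, edgeR adjusted p = 0.384), and *Ccnd1*, the gene of cyclin D1, at 43.2 to 54.1 against 23.6 to 37.6 CPM (0.62, adjusted p = 0.365). *Prox1*, a transcription factor induced by Wnt signalling in intestinal tumours, was at 31.9 to 160.0 against 31.7 to 63.0 CPM, with J_7135 the lowest of the first group (1.21, edgeR adjusted p = 0.475). *Lgr5*, the receptor of R-spondins that marks the sorted cells, had a log2 fold change of -0.06 (adjusted p = 0.933).

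**Figure D5:**
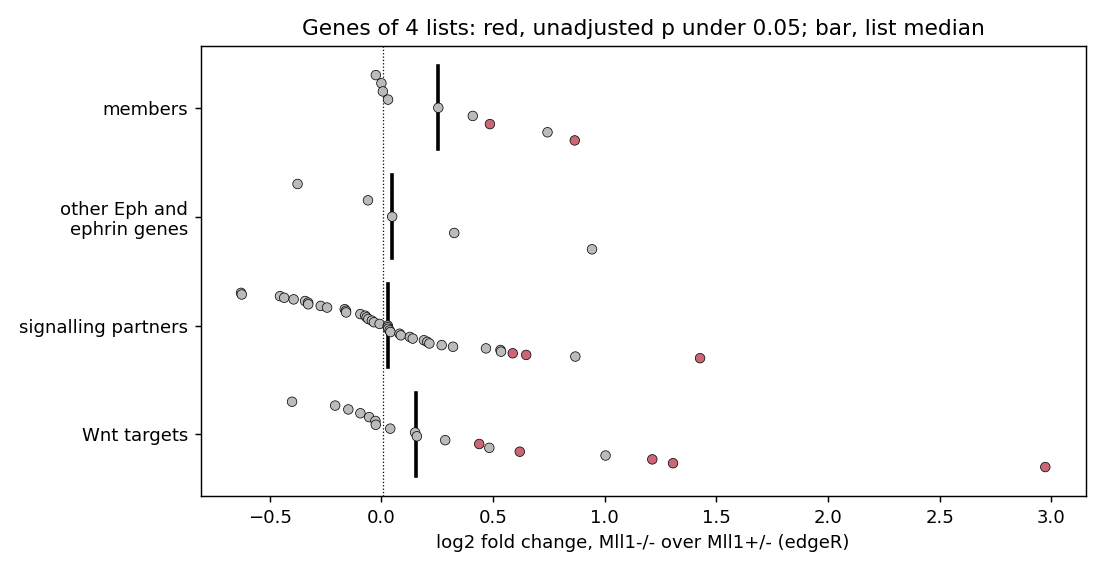
Log2 fold change from edgeR (horizontal axis) of each tested gene of 4 lists (rows), as points in order of size within a row, red where the unadjusted p was under 0.05, with the list median as a black bar and the median of all genes, 0.01, as a dotted line. The medians are 0.25 for the members, 0.05 for the other Eph and ephrin genes, 0.03 for the signalling partners and 0.15 for the Wnt targets.

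Summed markers of several cell types stood at different levels in the genotypes, but no single marker passed an adjusted p of 0.1 in edgeR. Of all genes tested, 50.8% had a log2 fold change above 0, and 6.28% did not overlap between the genotypes. What part the markers had in the results on the members was not tested. The summed level of 8 markers of Lgr5 stem cells, most of it *Olfm4*, was 10635 to 17419 CPM in the libraries labelled Mll1-/-. In those labelled Mll1+/- it was 22918 to 27264 CPM. Of these 8 genes 6 were lower, but only *Olfm4* and *Slc12a2* without overlap, and *Lgr5* had a log2 fold change of -0.06. *Smoc2* (0.03) and *Axin2* were higher, *Axin2* without overlap at 184.8 to 267.0 against 149.4 to 183.0 CPM. The sums of 8 enterocyte markers were 285.7 to 299.0 against 341.4 to 429.7 CPM, with 6 of the 7 tested lower and *Vil1*, the largest part of the Mll1-/- sums, at 148.0 to 198.9 against 120.3 to 145.5 CPM, and those of 8 enteroendocrine markers 6.96 to 9.41 against 9.87 to 73.4 CPM. Sums of 8 Paneth cell markers overlapped at 1335 to 2546 against 1970 to 4746 CPM, with 7 of 8 genes lower. The exception, *Mmp7*, was higher without overlap, at 224.0 to 427.5 against 137.9 to 164.5 CPM. Sums of 8 goblet cell markers also overlapped, at 642.8 to 1162 against 595.6 to 785.1 CPM, with 6 of 8 genes higher. *Zg16* (log2 fold change -4.03) and *Spink4* (-0.54) were lower. Sums of 8 tuft cell markers were 3.02 to 10.8 against 2.51 to 3.37 CPM. In such pools of sorted cells, fewer cells with a transcript and less transcript per cell cannot be told apart.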

How the data were processed

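Libraries of Lgr5-GFP+ cells from 8 mice, 4 per genotype, were analysed, and each mouse is 1 replicate. Reads had been mapped by the authors with GSNAP (build mm10), and the deposited counts are raw numbers of uniquely mapped reads per gene from featureCounts 1.6.3 on Ensembl annotation, made without use of the strand. The authors also deposited a signal table, with counts scaled by a size factor per library, and it was used only to find the genes by symbol and those the authors kept. The number of value columns matched to no sample was 0.

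Genes were filtered with filterByExpr (minimum 10 counts, 15 in total), scaled with TMM and compared with edgeR 4.0.16 in R 4.3.3 by a two-sided quasi-likelihood test with genotype as the only term. P-values were adjusted by Benjamini-Hochberg over 16445 genes, with a threshold of 0.1, and the common biological coefficient of variation was 0.435. Intervals of 95% use the moderated degrees of freedom of edgeR, and within-run differences use log2 CPM with a prior count of 2. Depth was 14468751 to 16847793 counts per library. The script was tested on simulated data.

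The members, the gene lists and the tests were chosen with earlier results of these data known. Genes named were the members, *Kmt2a*, *Ctnnb1*, the other Eph and ephrin genes, the genes of the partner and Wnt lists with an unadjusted p under 0.05, *Axin2*, *Lgr5* and *Adam10*, the 3 genes most like *Ephb2*, *Ephb3*, *Efnb1* and *Efnb2* in genes of at least 10 CPM, and markers printed beside a result. A list of immune markers is not reported here. *Wif1*, with 0 counts in every Mll1+/- library, was named after its values were seen. Words of 31 bases shared with other genes made up at most 1.88% of a member's transcripts. Promoters are those of RefSeq on GRCm38.p6, and all 10 members matched. Alternatives were other scalings, filters and tests (DESeq2 1.42.0, limma 3.58.1), a block of library runs, a block of neighbouring library numbers (chosen after seeing the data), an *Xist* covariate, and each library left out.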

Additional observations from a re-analysis of the deposited data

Results flagged for a closer look

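In groups of 4 libraries, a library far from the other 3 was looked for in 27 named genes, and chance gives about 1 in 20 such groups. This was found in 4 of 54 groups. J_7075 stood apart from the other libraries labelled Mll1-/- for *Ephb6*, with 0.531 CPM against 0 in the other 3 (gap over range 1). With 3 libraries at 0, any value above 0 gives a gap over range of 1, so this flag says little. In *Efnb2*, J_7075 stood apart in the same group, with 11.03 CPM against 0.595 to 2.23 (0.843). J_7100 stood apart from the other libraries labelled Mll1+/- for *Kmt2a*, with 64.9 CPM against 48.9 to 51.2 (0.86). J_7079 stood apart in the same group for *Grb7*, with 78.0 CPM against 63.4 to 65.8 (0.839). Outside the genes, counts on the 92 spike-in transcripts numbered 36 in J_7100 and at most 2 in the other libraries.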

How the results depend on the processing

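No member passed the threshold except *Ephb3* under the DESeq2 Wald test (log2 fold change 0.88, adjusted p = 0.0031), which makes 1 member against 0. In the other settings the log2 fold change of *Ephb3* was 0.75 to 0.94 and its adjusted p 0.137 to 0.499. Over the 8 sets that leave out 1 library, the log2 fold change was 0.18 to 0.39 for *Ephb2*, 0.75 to 0.94 for *Ephb3*, -0.23 to 0.18 for *Ephb4*, -0.28 to 0.34 for *Epha2*, -0.31 to 0.24 for *Epha4*, 0.35 to 1.01 for *Epha7*, 0.25 to 0.52 for *Efnb1*, -1.27 to 0.36 for *Efnb2* and 0.38 to 0.58 for *Efna1*, and the median of the members was 0.19 to 0.38.

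Directions turned for *Ephb4* under limma-voom with quality weights (-0.24), the block of library runs (-0.00048) and within run 1 (-0.37), and for *Epha2* under limma-voom (0.29), the block of runs (0.028) and within run 1 (0.84). They turned for *Epha4* within run 1 (-0.034) and run 2 (-0.098), and for *Efnb2* with DESeq2 size factors (0.0020), without a filter (0.012), under DESeq2 (0.0076) and within run 1 (0.31). Among single libraries, the direction turned without J_7135 (-0.23) or J_7134 (-0.0086) for *Ephb4*, without J_7135 (0.34), J_7134 (0.082) or J_7139 (0.20) for *Epha2*, without J_7096 (-0.31), J_7136 (-0.016), J_7134 (-0.17) or J_7139 (-0.022) for *Epha4*, and without J_7096 (0.21), J_7135 (0.36), J_7136 (0.20), J_7079 (0.052) or J_7139 (0.20) for *Efnb2*. Each of these members had a value close to 0 with all 8 libraries, and the cause was not tested.

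The number of genes past the threshold was 14 in edgeR, 8 with upper quartile scaling, 47 without a filter, 34 with at least 10 counts in every library, 521 under DESeq2 and 103 under limma-voom. It was 0 with the block of runs, where 1642 genes had an unadjusted p under 0.05, and 0 with the *Xist* covariate, where 1600 did. It was 45 without J_7135, 2 without J_7075 and 0 without each of the other 6 libraries. Ranked by CPM without division by length, 4 of the 10 members kept their place. With no filter, with at least 10 counts in every library and under limma-voom, *Nkd1* and *Notum* were called among the Wnt targets, and DESeq2 called these 2, *Ccnd1* and *Wif1*. The labels pair no mice, and the replicate numbers follow only the order of the accessions. Library numbers do put 1 mouse of each genotype side by side, and with these 4 neighbours as a block, an alternative chosen after seeing the data, edgeR called 0 genes (1436 with an unadjusted p under 0.05) and no member. The values of *Ephb4* (-0.031) and *Epha4* (-0.064) turned, the median of the signalling partners was -0.050 and *Ephb3* had an adjusted p of 0.413. *Ephb3*, *Epha7* and *Efna1* were higher in the Mll1-/- library in 4 of 4 neighbours. This held in 3 of 4 for *Ephb2*, *Epha2* and *Efnb1*, in 2 for *Epha4* and in 1 for *Ephb4* and *Efnb2*. The share of all genes that are higher in 4 of 4 was not counted, so these counts are a description only.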
